A study of Mus musculus with 8 samples.

Results

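H3K36me3, the trimethylation of lysine 36 of histone H3, was compared between LLC-R and LLC-NR tumors across whole gene bodies and the space between genes. Both tumors were isografts of the mouse Lewis lung carcinoma line, grown under the skin of the right flank of young adult female C57BL/6J mice and dissected. LLC-R is a single line made resistant to VEGF-Trap, a soluble decoy receptor that captures VEGF, by repeated selection in treated animals. LLC-NR is the drug sensitive counterpart. The labels name no treatment of the mice that carried the dissected tumors, and do not say how many tumors went into a library. The 2 H3K36me3 libraries, 1 for each line, were chosen by their labels out of 8 libraries that also cover H3K4me3, H3K9ac and H3K27me3. With 1 library for each line there is no replicate, so every value below is a description of these libraries and no test was made. Intervals are 95% exact (Clopper-Pearson) intervals that cover counting error only.

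Each library is a list of nucleosome-sized intervals, called peaks here, without a height. LLC-NR held 6132117 H3K36me3 peaks on chromosomes 1 to 19 and LLC-R held 8304603, which is 1.35 times as many. The peaks covered 37.7% of the sequenced bases in LLC-NR and 51.0% in LLC-R. Because the totals differ, levels are given as peaks per kb, and differences as the log2 ratio of the shares of each library's own peaks on these chromosomes, LLC-R over LLC-NR. All peaks have the width of 1 nucleosome and none overlaps another, so at most 6.8 fit in 1 kb. Depth and tumor line cannot be told apart in these files. The other libraries held between 5398636 and 8629352 peaks.

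H3K36me3 is laid down by SETD2, an enzyme that travels with elongating RNA polymerase II, and so marks the bodies of transcribed genes, typically more toward their 3′ ends than near the promoter. NSD1, NSD2 and ASH1L methylate the same lysine, KDM2 and KDM4 enzymes remove the methyl groups, and readers such as DNMT3B and MRG15 bind the mark. H3K27me3, the mark of Polycomb-repressed chromatin, is usually found on other genes, as Polycomb methyltransferase works poorly on a histone tail that carries H3K36me3.

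What the lists record is a row of such stretches of DNA, and 3 of them are printed to show peaks present in 1 library and missing nearby in the other. They come from the genes at both ends of the gene ranking described later, and from the gene at the upper end once genes with under 3 H3K9ac peaks per kb were set aside. The last of these was chosen after the values were seen. Each is written 5′ to 3′ on the strand of its gene, from the NCBIM37 (mm9) genome, with CpG dinucleotides in capitals.
Obox2, chr7:15963142-15963288, + strand, intron, listed in LLC-R: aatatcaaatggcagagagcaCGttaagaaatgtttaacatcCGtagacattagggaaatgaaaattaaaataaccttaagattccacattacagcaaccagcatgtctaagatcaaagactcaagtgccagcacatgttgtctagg
Tmem179, chr12:113742700-113742846, - strand, exon and intron, listed in LLC-R: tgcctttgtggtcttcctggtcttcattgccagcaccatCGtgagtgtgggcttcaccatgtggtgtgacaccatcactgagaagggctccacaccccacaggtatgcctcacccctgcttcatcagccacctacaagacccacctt
4930579C12Rik, chr9:89062664-89062810, - strand, intron, listed in LLC-NR: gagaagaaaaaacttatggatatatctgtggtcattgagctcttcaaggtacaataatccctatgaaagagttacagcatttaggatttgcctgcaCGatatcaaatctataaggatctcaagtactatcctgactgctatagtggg
The nearest midpoint in the other library was 2250 bp away at Obox2, 320 bp at Tmem179 and 1399 bp at 4930579C12Rik. The Tmem179 peak was 55.8% G+C, with 102 of its bases in an exon. The Obox2 peak was 36.7% G+C and the 4930579C12Rik peak 37.4%.

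Gene bodies held a smaller share of H3K36me3 in the resistant tumor, and the space between genes held a larger share. A gene body runs here from the transcription start site used by most transcripts to the farthest end of a transcript from that site, for 21418 protein-coding genes of GENCODE vM1. These bodies make up 35.2% of the bases of chromosomes 1 to 19, and intergenic space, outside every annotated gene, makes up 58.2%. Gene bodies held 40.6% of the LLC-NR H3K36me3 peaks and 38.2% of the LLC-R ones, a log2 ratio of -0.090 (-0.092 to -0.087). Intergenic space held 52.6% in LLC-NR and 55.1% in LLC-R, a log2 ratio of 0.067 (0.065 to 0.069). In peaks per kb, both spaces were higher in LLC-R: gene bodies had 2.95 in LLC-NR against 3.76 in LLC-R, and intergenic space had 2.31 and 3.28. The density in bodies was thus 1.28-fold that of intergenic space in the sensitive tumor, and 1.14-fold in the resistant one. For H3K4me3 it was 1.13-fold and 1.15-fold, and for H3K9ac 1.17-fold in both. By this measure H3K36me3 stood above both of these marks in LLC-NR but not in LLC-R.

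The same comparison was made as the log2 odds that a base is covered by a peak. On that scale gene bodies stood 0.57 above intergenic space in LLC-NR and 0.40 above it in LLC-R for H3K36me3. The values were 0.47 and 0.42 for H3K9ac, and 0.26 and 0.30 for H3K4me3. The other marks moved less or the opposite way in gene bodies. The log2 ratio of the gene body share was 0.01 for H3K4me3, -0.0032 for H3K9ac and 0.05 for H3K27me3, the Polycomb mark, whose LLC-R library was also the larger one. Between those libraries the H3K27me3 density in bodies went from 0.998-fold to 1.06-fold that of intergenic space, so that the bodies of genes lay below intergenic space in LLC-NR and above it in LLC-R.

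On every autosome gene bodies lay below intergenic space in the ratio of H3K36me3 shares. The ratio of gene bodies was below that of intergenic space on 19 of 19 chromosomes, by 0.11 to 0.22 on the log2 scale. It was below 0 in gene bodies of 16 chromosomes, the other three being chromosomes 7, 14 and 18. These had the largest log2 ratios of the whole chromosome's share, at 0.12, 0.12 and 0.17, whereas chromosome 1 had the lowest, at -0.09.

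Along the gene, both libraries had the shape that this mark is known for, and the shape was shallower in LLC-R. Over 12371 genes of 10 kb or longer, the kb just upstream of the start site was the lowest point, with 2.27 peaks per kb in LLC-NR against 3.44 in LLC-R. The density climbed along the body to 3.10 and 3.86 peaks per kb in the last of 20 equal parts, and was highest in the first kb past the transcript end, at 3.25 and 3.96. Relative to each library's mean over chromosomes 1 to 19, that trough lay at 0.886 in LLC-NR against 0.992 in LLC-R, and that crest at 1.27 and 1.14. The log2 ratio of shares accordingly went from 0.16 just upstream of the start to -0.15 just past the end. Of the marks measured, only H3K36me3 lay below its library mean just upstream of the start. A step up past the end was also seen for H3K9ac and H3K4me3. There H3K9ac stood at 1.15 of its mean for either tumor, and H3K4me3 at 1.14 (LLC-NR) and 1.16 (LLC-R). The H3K36me3 crest was thus higher than both for LLC-NR, but not for LLC-R. H3K27me3 was lower, at 0.999 and 1.06.

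**Figure D1:**
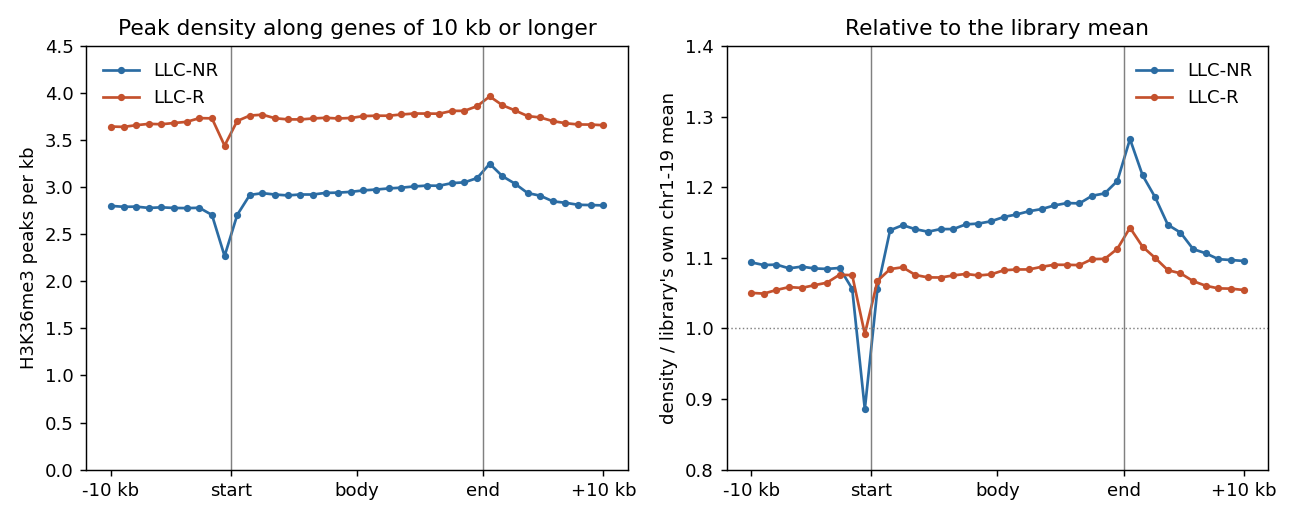
H3K36me3 along 12371 genes of 10 kb or longer, in 1-kb steps for 10 kb on either side and in 20 equal parts of the body, as peaks per kb (left) and divided by the library's mean over chromosomes 1 to 19 (right, axis from 0.8). LLC-R (red) lies above LLC-NR (blue) on the left, while on the right LLC-NR has the deeper trough, 0.886 against 0.992, and the higher crest, 1.27 against 1.14.

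The slope toward the 3′ end was also smaller in LLC-R in each length class. With the body cut into 3 equal parts, the last part over the first gave a log2 ratio of 0.07 in LLC-NR against 0.03 in LLC-R for all genes of 10 kb or longer. It was 0.12 and 0.04 for genes of 10 to 30 kb, and 0.02 and 0.01 for genes of 300 kb or longer. H3K4me3, a promoter mark, sloped the other way, with -0.11 in LLC-NR against -0.05 in LLC-R, and H3K9ac was close to level, at -0.0044 and -0.0023.

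The genes of intermediate length held less of the resistant library, and the longest genes did not. The 4526 genes of 30 to 100 kb held 12.8% of all LLC-NR peaks and 11.4% of all LLC-R peaks, a log2 ratio of -0.16 (-0.17 to -0.16). The ratio was -0.14 for the 5871 genes of 10 to 30 kb and -0.10 for the 1573 genes of 100 to 300 kb. The 401 genes of 300 kb or longer held 9.03% and 9.27%, a ratio of 0.038 (0.033 to 0.043), which became -0.03 when shares were taken relative to intergenic peaks. The 9047 genes under 10 kb were at -0.018, and at 0.005 when only genes that overlap no other gene were counted. The classes also differed in their level in LLC-NR, which was 3.21 peaks per kb in the class of 30 to 100 kb and 2.58 in the longest class. In LLC-R the same classes had 3.88 and 3.58 peaks per kb.

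How dense the mark was in LLC-NR ordered the genes more clearly than length did. Genes of 10 kb or longer were divided into 10 groups of equal size by their LLC-NR density from the start to the midpoint of the body, and the stretch from the midpoint to the end, not used for the division, was then measured. In the lowest group this stretch had 1.73 peaks per kb in LLC-NR against 2.76 in LLC-R, a log2 ratio of 0.24 (0.22 to 0.25). In the highest group it had 4.06 and 4.26, a log2 ratio of -0.37 (-0.38 to -0.35). The highest group was 2.35 times as dense as the lowest in LLC-NR but 1.55 times as dense in LLC-R. To hold its share, the highest group would have needed 5.50 peaks per kb in LLC-R, and no ranked gene exceeded 4.86. The H3K27me3 ratio over the same groups was 0.02 in the lowest, -0.06 in the fourth and 0.32 in the highest. H3K9ac stayed between -0.02 and 0.02.

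**Figure D2:**
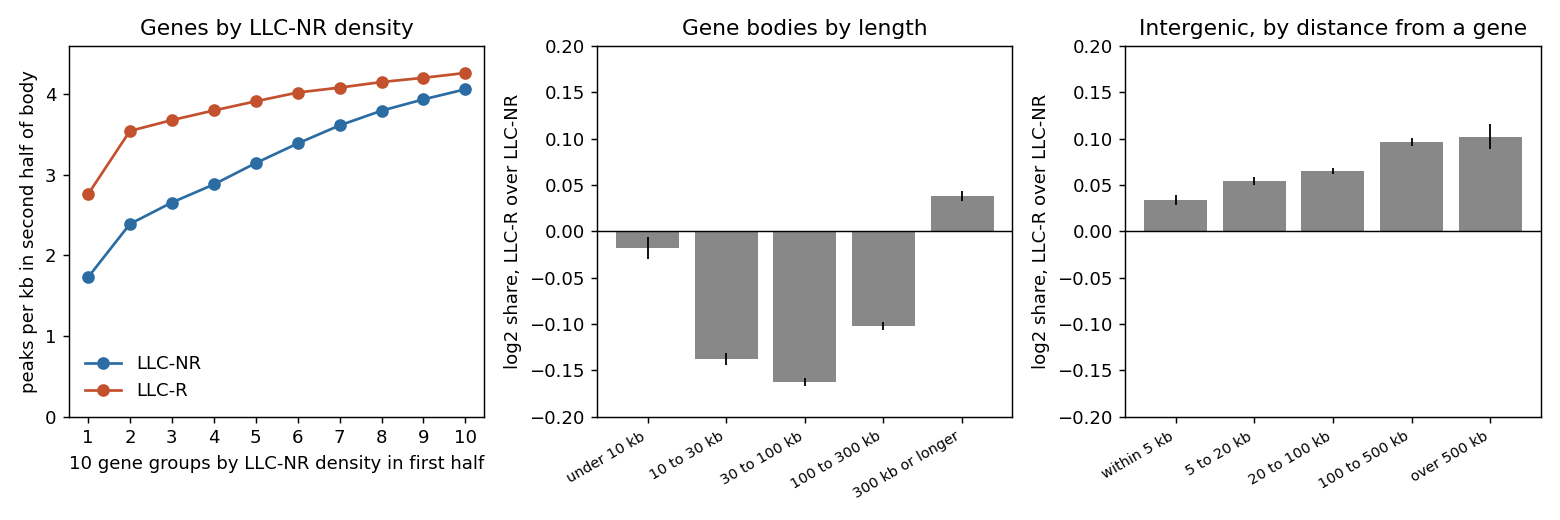
Left, peaks per kb from the midpoint to the end of gene bodies, for 10 groups of genes in order of LLC-NR density before the midpoint, where the lines for LLC-NR (blue) and LLC-R (red) come close in the highest group (4.06 and 4.26). Middle and right, log2 ratio of shares (LLC-R over LLC-NR) by gene length and by distance of intergenic space from a gene, with 95% counting intervals, where lengths from 10 to 300 kb lie below 0 and each intergenic class lies above it.

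In intergenic space the gain in share was larger the farther from a gene. The log2 ratio was 0.03 (0.03 to 0.04) within 5 kb of a gene, 0.05 at 5 to 20 kb, 0.06 at 20 to 100 kb, 0.10 at 100 to 500 kb and 0.10 (0.09 to 0.12) beyond 500 kb. The last 2 classes overlapped in their intervals. Over 100 kb from any gene the density was 2.27 peaks per kb in LLC-NR, against 3.28 in LLC-R. For H3K27me3 the ratio was -0.05 within 5 kb of a gene and 0.19 beyond 500 kb. It was -0.04 and 0.05 for H3K4me3, which thus also rose with distance, and -0.02 and 0.0029 for H3K9ac. When windows of 10 kb were sorted by G+C content, the fifth richest in G+C had a ratio of -0.02 in gene bodies and 0.16 in intergenic space, and the fifth poorest in G+C had -0.10 and 0.08. Gene bodies thus lay below intergenic space in both.

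Across 239227 windows of 10 kb on chromosomes 1 to 19, the H3K36me3 map was more even in LLC-R. The mean was 2.56 peaks per kb in LLC-NR against 3.47 in LLC-R, and the coefficient of variation, the SD over the mean, was 34.0% and 25.2%. H3K27me3 went from 34.2% to 24.8% and H3K4me3 from 33.6% to 31.3%, whereas H3K9ac was at 28.2% and 28.4%. In the study's mapping statistics LLC-R had more reads than LLC-NR for H3K36me3 and H3K27me3, and fewer for H3K9ac and H3K4me3. The part of depth in this evenness was not tested. The Spearman correlation over windows was 0.76 between the 2 H3K36me3 libraries. Between H3K36me3 and H3K27me3 it was 0.34 in LLC-NR against 0.53 in LLC-R. With other marks it came close to 0.76, at 0.73 and 0.75 for H3K9ac and 0.67 and 0.68 for H3K4me3. Windows share mappability and base composition, so these correlations are descriptions only.

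Single positions were set side by side between the libraries. Of the LLC-NR peaks, 38.1% in gene bodies and 32.8% in intergenic space had an LLC-R midpoint within 20 bp. LLC-R was also the denser in bodies, at 3.76 against 3.28 peaks per kb, and its part in this difference was not tested. Of the LLC-R peaks, 44.9% in gene bodies and 53.6% in intergenic space lay over 73 bp from every LLC-NR midpoint. These LLC-R peaks were 44.6% G+C in bodies and 42.1% in intergenic space, against 43.2% and 40.9% for LLC-NR peaks over 73 bp from every LLC-R midpoint.

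For single genes, 12174 of the 12371 genes of 10 kb or longer had at least 20 H3K36me3 peaks over both libraries and were ranked by their log2 ratio, with 1 peak added to each count. Where a pair of counts is given for a gene, the LLC-NR count comes first. A value in brackets is the log2 ratio, followed by an interval where one is given. Intervals of single genes were taken from the counts without the added peak. With few peaks the ratio can thus lie off their center, as for Obox2, with 2.73 without the added peak and 2.23 with it. In number of peaks, 11885 of them (97.6%) had more in LLC-R, 115 had the same number and 174 had fewer. The density had a median of 3.24 peaks per kb in LLC-NR against 4.01 in LLC-R, with an SD over genes of 0.731 and 0.495. The Spearman correlation of the densities was 0.80 over these genes, so that the order of genes was largely kept. The median log2 ratio was -0.15, from -0.40 at the 5th percentile to 0.33 at the 95th, and 8524 genes were below 0. Any gene above 3.59 peaks per kb in LLC-NR, as 4265 genes were, would have had a lower share in LLC-R even at the highest LLC-R density of any gene.

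**Figure D3:**
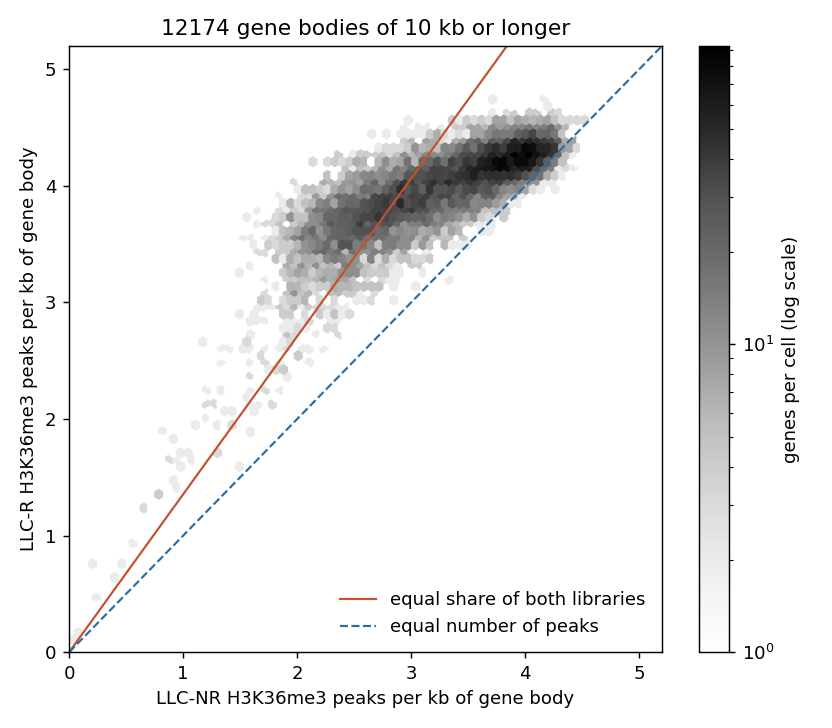
H3K36me3 peaks per kb in LLC-NR and LLC-R for 12174 gene bodies of 10 kb or longer, with darker cells for more genes (log scale). The solid line marks equal shares of the 2 libraries and the dashed line equal numbers of peaks. Most sparse genes lie on or above the solid line, and dense genes lie below it, close to 4 peaks per kb in both libraries.

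A ratio of at least 1.5-fold higher in LLC-R was found for 118 genes (0.969% of those ranked), and of at least 1.5-fold lower for 1 gene (0.00821%). The interval excluded 0 for 71 of the 118. A smaller limit, of a share at least 25% higher or 20% lower in LLC-R, was added after the values were seen. It was passed by 626 genes (5.14%) upward and 2438 (20%) downward. The interval excluded 0 for 231 of the higher genes and 1303 of the lower. The lower genes were already dense in LLC-NR, with a median of 4.02 peaks per kb against 4.20 in LLC-R. The higher genes went from 1.94 to 3.61. Both classes were picked by a ratio that holds the LLC-NR count, so this difference in LLC-NR density is partly built in. In G+C the higher genes were richer, with a median of 49.2% against 42.1% in the lower genes. The median H3K27me3 log2 ratio was 0.31 in the lower genes, -0.07 in the higher genes and 0.12 in all ranked genes. In peaks per kb, H3K27me3 rose in each class from LLC-NR to LLC-R. It went from 2.31 to 3.65 in the lower genes, from 3.39 to 4.08 in the higher genes and from 2.70 to 3.80 in all ranked genes. Over all ranked genes the Spearman correlation of the H3K36me3 and H3K27me3 ratios was -0.50. Both marks had the larger library in LLC-R, and the part of library size in this correlation was not tested. Genes of the Zfp name, which mostly encode zinc finger proteins, numbered 75 lower and 4 higher among 230 ranked, against 20% and 5.14% of all ranked genes.

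The 10 highest ratios were mostly of multigene family members or predicted genes with few peaks in any library. Obox2, an oocyte-expressed homeobox gene of a cluster on chromosome 7, had 2 peaks in LLC-NR against 18 in LLC-R over 44.1 kb, a log2 ratio of 2.23 (0.67 to 5.88). Vmn2r28, a vomeronasal receptor gene, had 3 and 17 peaks, a ratio of 1.73. Gm11143 had 3 and 17 peaks as well. Gm8257, Gm3248, Gm3667 and Gm10406, all on chromosome 14, had ratios from 1.17 to 1.53, and Gm8897 and Gm2075 had 1.42 and 1.39. In 9 of the 10 genes H3K9ac was under 3 peaks per kb, which holds for 8.71% of all ranked genes and for 49.2% of the 118. Reads had to map uniquely, so the values of these genes are uncertain. In 9 of the 10, H3K27me3 had a ratio above 0 too, with a median over the 10 of 0.73 against 0.12 for all ranked genes. H3K4me3 was above 0 in all 10, from 0.005 to 1.23, with a median of 0.53 against 0.005. The H3K9ac median was 0.12 against -0.005, with a range from -0.17 to 0.71. At Obox2, H3K27me3 had 0 and 9 peaks, a larger ratio than that of H3K36me3. In most of these genes the higher share was thus not limited to H3K36me3. Of the 118 genes, 35 were on chromosome 7, which holds 884 of the ranked genes, and 18 on chromosome 5, which holds 845. Of 86 ranked Vmn2r genes, 10 were among the 118, which make up 0.969% of all ranked genes. With each chromosome scaled by its own peaks, 89 genes were at least 1.5-fold higher.

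Tmem179, which encodes a membrane protein, was the exception among the 10. Its body at chr12:113738395-113749371 had 10 peaks in LLC-NR against 38 in LLC-R, or 0.911 and 3.46 peaks per kb, a log2 ratio of 1.39 (0.46 to 2.66). H3K4me3 had 19 and 25 peaks there, a ratio of 0.38, and H3K9ac and H3K27me3 had ratios of -0.04 and -0.10. With Tmem179, the 10 highest genes with at least 3 H3K9ac peaks per kb, a selection made after the values were seen, had 0.911 to 1.62 peaks per kb in LLC-NR and 3.46 to 3.93 in LLC-R. Lgi4, a secreted protein that acts in peripheral nerve myelination, had 15 and 43 peaks (1.02). Wscd2 had 132 and 325 peaks over 120.2 kb (0.86, 0.57 to 1.17) and was the only one of 100 kb or longer. Sftpd, which encodes surfactant protein D of the lung epithelium, had 21 and 51 peaks (0.80, 0.08 to 1.65).

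The 10 lowest ratios belonged to genes with a few peaks fewer in LLC-R, and 8 of the 10 were densely marked in both tumors. 4930579C12Rik had 12 peaks in LLC-NR against 10 in LLC-R over 25.8 kb, a log2 ratio of -0.68 (-2.07 to 0.64), and is the 1 gene past 1.5-fold. Hint3, a nucleotide hydrolase gene, had 42 and 38 peaks (-0.58). Spc25, which encodes a subunit of the kinetochore complex NDC80, had 55 and 50 (-0.57). Smcr8, an autophagy gene, had 49 and 45 (-0.56). Lsg1, a GTPase gene of ribosome maturation, had 119 and 110 peaks, a ratio of -0.55 (-0.94 to -0.16). Ppp1r2, an inhibitor of protein phosphatase 1, had 101 and 94 (-0.54). Usp39, a splicing factor gene, had 117 and 110 (-0.53, -0.92 to -0.14). Prmt5, an arginine methyltransferase gene, had 44 and 41 (-0.54), Gcsh of the glycine cleavage system had 52 and 49 (-0.52), and Srp54c, a near copy of another signal recognition particle gene and so uncertain, had 30 and 28 (-0.53). The interval excluded 0 only for Lsg1, Ppp1r2 and Usp39.

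**Figure D4:**
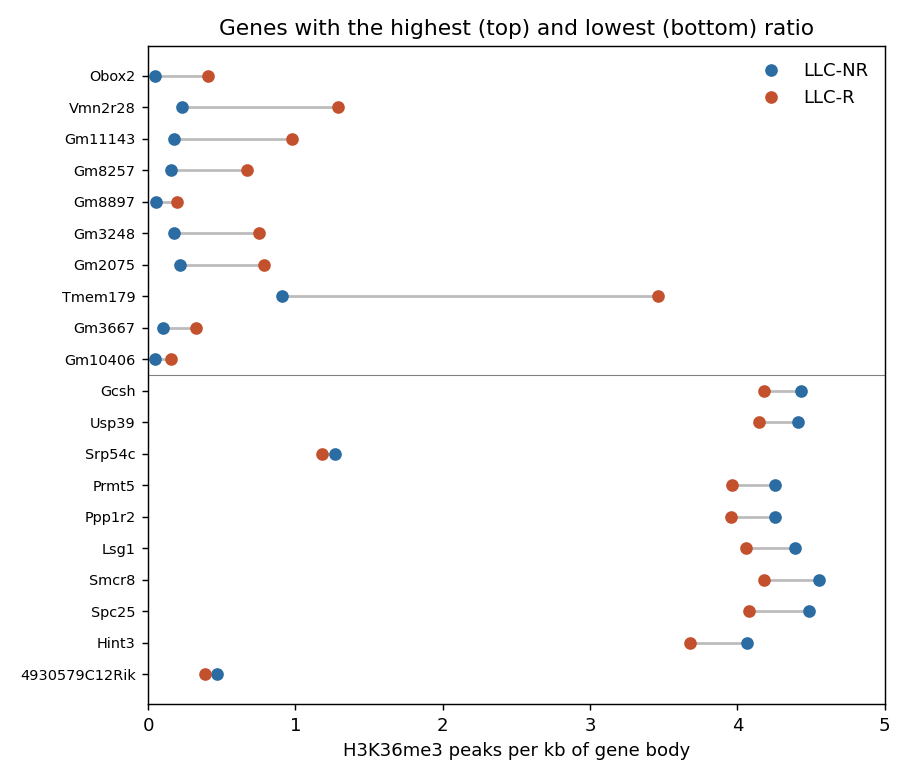
H3K36me3 peaks per kb of gene body in LLC-NR (blue) and LLC-R (red) for the 10 genes with the highest ratio and the 10 with the lowest. Of the upper genes only Tmem179 exceeds 3 peaks per kb in LLC-R, and 8 of the lower genes have about 4 peaks per kb in both.

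Among 1956 ranked genes of 100 kb or longer, where counts are larger, the lowest ratios were those of genes with almost equal numbers of peaks in both tumors. Phip, a bromodomain protein gene, had 472 peaks in LLC-NR against 465 in LLC-R over 109.3 kb, a log2 ratio of -0.46 (-0.65 to -0.27). Rfwd2, a ubiquitin ligase gene, had 489 and 492 peaks (-0.43). Cdc73, a subunit of the PAF1 complex that accompanies elongating polymerase, had 441 and 445 (-0.42). Dennd1b had 398 and 402 (-0.42) and Nbeal1 had 612 and 619 (-0.42). All intervals of these 5 genes excluded 0. They had 3.97 to 4.32 peaks per kb in LLC-NR, and their H3K27me3 ratios ran from 0.10 to 0.43. Their H3K4me3 ratios were all below 0, from -0.29 to -0.22. Other than Phip they lie on chromosome 1, the chromosome with the lowest share ratio.

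The genes that write, erase and read this mark were dense in H3K36me3 and lay below 0. Of 27 ranked members of a list of H3K36 methylation genes, 27 had a ratio below 0, with a median of -0.32 against -0.15 for all ranked genes. Of these, 14 (51.9%, against 20% of all ranked genes) passed the limit of 20% lower and 0 that of 25% higher. None passed 1.5-fold. Setd2, the main enzyme for trimethylation, had 363 peaks in LLC-NR against 366 in LLC-R, or 4.22 and 4.25 peaks per kb, a log2 ratio of -0.43 (-0.64 to -0.21). Ash1l had 481 and 497 peaks (-0.39, -0.57 to -0.21), Whsc1, which encodes NSD2, had 230 and 238 (-0.39), and Whsc1l1, which encodes NSD3, had 461 and 496 (-0.33). Nsd1 had 378 and 441 (-0.22, -0.42 to -0.01). The ratio was -0.35 for Setd3, -0.25 for Smyd2 and -0.22 for Setmar. Msh6, a mismatch repair gene whose protein reads the mark, had 64 and 65 peaks (-0.42). The highest members were demethylase genes, Kdm4d at -0.05 and Kdm2b at -0.06. The median H3K27me3 ratio of the list was 0.40.

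Transcription elongation genes had 3.74 peaks per kb in LLC-NR against 4.13 in LLC-R, summed over all members. Of 27 ranked elongation genes 15 (55.6%, against 20% of all ranked genes) were at least 20% lower. None was 25% higher (against 5.14%), and the median was -0.34. Larp7, of the 7SK particle that holds back P-TEFb, had 68 and 67 peaks (-0.46), and Polr2b, the second largest subunit of polymerase II, had 165 and 166 (-0.43). Ell (-0.19) and Aff1 (-0.09), both of the super elongation complex, were the highest. Of 42 ranked housekeeping genes 24 (57.1%) were at least 20% lower and 0 were 25% higher, with a median of -0.35 and an H3K27me3 median of 0.42. Rab1, a vesicle transport gene, had 46 and 45 peaks (-0.47) and Tfrc, the transferrin receptor, had 99 and 99 (-0.44). Sec24c had 78 and 94 (-0.17) and Rab5c 86 and 104 (-0.17). The LLC-NR medians were 3.97 peaks per kb for ranked elongation genes and 4.07 for ranked housekeeping genes. Both lie above 3.59 too, so the same limit holds for these counts.

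Long genes of neurons, which a lung tumor is expected to transcribe little, lay on the other side. Their 51 ranked members had a median ratio of 0.13, with 7 below 0, 2 (3.92%, against 5.14% of all ranked genes) at least 25% higher and 0 at least 20% lower. Relative to intergenic peaks the median was 0.06, 14 were below 0 and 0 were 25% higher, against 3.29% of all ranked genes. With each chromosome scaled by its own peaks, 0 were 25% higher as well, against 4.40%. Dcc, a netrin receptor gene, had 2362 peaks in LLC-NR against 4039 in LLC-R over 1092 kb, a ratio of 0.34 (0.26 to 0.41). It lies on chromosome 18, and its ratio was 0.17 when that chromosome was scaled by its own peaks. H3K4me3, H3K9ac and H3K27me3 had ratios of 0.32, 0.19 and 0.37 in Dcc. Csmd2 had 763 and 1295 peaks (0.32, 0.20 to 0.46). Pard3b was the lowest, with 3097 and 3687 peaks (-0.19, and -0.10 scaled to its own chromosome), before Galntl6 with 1338 and 1703 (-0.09). Summed over all members on chromosomes 1 to 19, the neuronal list had 2.39 peaks per kb in LLC-NR against 3.49 in LLC-R, and the housekeeping list 4.03 and 4.31. The housekeeping list, as genes expressed in most cells, was the denser in both libraries, which is where H3K36me3 is known to be.

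**Figure D5:**
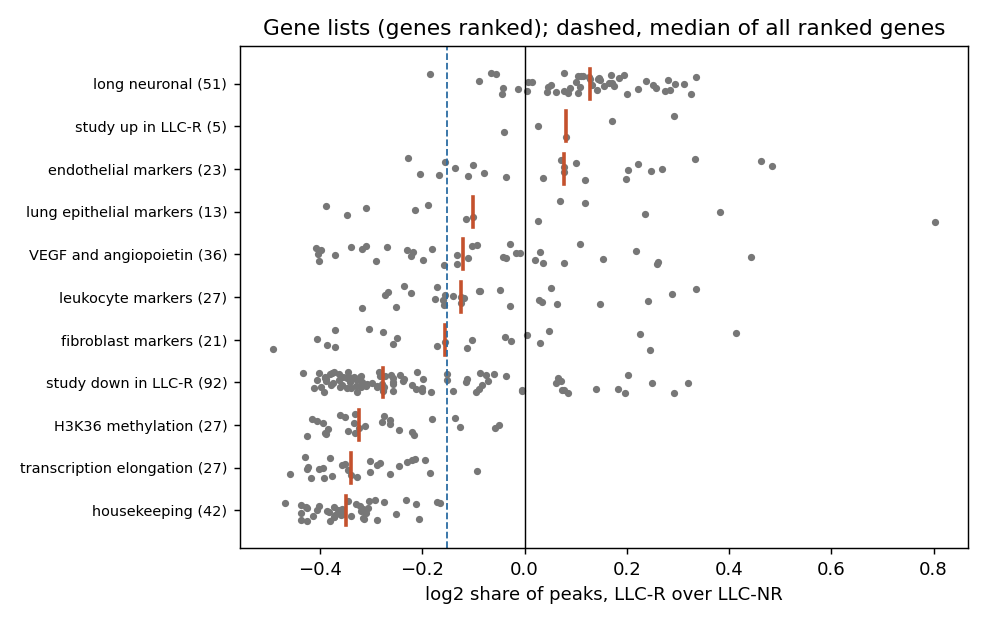
Log2 ratio of H3K36me3 shares (LLC-R over LLC-NR) of the ranked genes of each list, 1 point per gene, with the list's median as a red bar. The dashed line is the median of all 12174 ranked genes (-0.15), and the medians run from -0.35 for housekeeping genes to 0.13 for long neuronal genes.

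Genes of the VEGF and angiopoietin pathways, which hold the ligands that VEGF-Trap captures, had a median near that of all ranked genes, -0.12 against -0.15. Of 36 ranked members, 6 (16.7%, against 20% of all ranked genes) were at least 20% lower and 1 (2.78%, against 5.14%) was 25% higher. Relative to intergenic peaks the lower genes became 10, where all ranked genes had 33.3%. Arnt, a partner of the hypoxia factors, was among the lowest, with 251 and 257 peaks (-0.40, -0.66 to -0.15). Dll4, the Notch ligand of sprouting vessels, was the highest, with 24 and 45 peaks (0.44, with an interval that held 0), before Flt4, the receptor VEGFR-3, with 92 and 150 (0.26, -0.12 to 0.66). Of the drug's own ligands and their receptors, Vegfa, Pgf, Flt1 and Kdr, singled out after the values were seen, had intervals that held 0. The neuropilin genes of this list had intervals below 0. Nrp1 had 543 and 601 peaks (-0.29, -0.46 to -0.12) and Nrp2 474 and 486 (-0.40, -0.59 to -0.22). Their LLC-NR densities, 3.71 and 4.12 peaks per kb, were above 3.59, past which a lower share in LLC-R was fixed. Vegfb, under 10 kb and so not ranked, had 19 and 21 peaks (-0.30, -1.26 to 0.68). Vegfa had 55 and 67 peaks (-0.16, -0.69 to 0.39), Pgf 28 and 46 (0.26, -0.43 to 1.01), Flt1 249 and 356 (0.08, -0.16 to 0.32) and Kdr 125 and 174 (0.04, -0.30 to 0.38). The value of Kdr became -0.03 when shares were taken relative to intergenic peaks.

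The other cells that an isograft can hold were looked at through marker genes. In tissue, a change in the number of cells of a type and a change in the mark within those cells cannot be told apart. All members of the 4 lists had peaks in both libraries. The 27 ranked leukocyte markers had a median ratio of -0.12, with 0 lower and 1 (3.70%) higher by the same limits, against 20% and 5.14% of all ranked genes. Relative to intergenic peaks 3 were lower and 0 higher, and with each chromosome scaled by its own peaks 1 was lower and 0 higher. All ranked genes had 33.3% lower and 3.29% higher on the former scale, and 18.8% and 4.40% on the latter. Ptprc, the pan-leukocyte antigen CD45, had 428 and 465 peaks (-0.32, -0.51 to -0.13), Itgb2, an integrin of white cells, had 132 and 148 (-0.27), Laptm5 had 51 and 85 (0.29) and Runx3 had 129 and 221 (0.33, 0.02 to 0.66). The 23 endothelial markers had a median of 0.08, with 0 lower and 3 (13.0%) higher. The median was 0.01 and the higher genes 2 relative to intergenic peaks, and the median was 0.04 with each chromosome scaled by its own peaks. Plvap, the protein of fenestral diaphragms, had 27 and 52 peaks (0.48) and Nos3, endothelial nitric oxide synthase, had 44 and 83 (0.46), whereas Calcrl (-0.23) and Eng (-0.20) were the lowest.

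The 21 fibroblast markers had a median of -0.16, with 5 (23.8%) lower and 1 (4.76%) higher, against 20% and 5.14% of all ranked genes. With each chromosome scaled by its own peaks 1 was lower, Col3a1 at -0.40, and relative to intergenic peaks 8 were. The lower share of all ranked genes was 18.8% and 33.3% on these scales. Col3a1, a fibrillar collagen gene, had 161 and 155 peaks (-0.49, -0.82 to -0.17) and Fn1, fibronectin, had 268 and 274 (-0.41). Fbln2, which encodes a matrix protein, had 122 and 221 (0.41, 0.09 to 0.75) and Col1a1 had 42 and 68 (0.24). The 13 lung epithelial markers had a median of -0.10, with 2 lower and 2 higher (15.4% each). The median was -0.03 with each chromosome scaled by its own peaks. Relative to intergenic peaks it was -0.17, with 3 lower and 1 higher, where all ranked genes had 33.3% and 3.29%. Etv5 (-0.39) and Abca3 (-0.35), both active in alveolar type II cells, were the lowest, and Sftpd was the highest, before Lamp3 with 88 and 156 peaks (0.38). Summed over all members, the 4 lists had 2.66 to 3.42 peaks per kb in LLC-NR and 3.71 to 4.03 in LLC-R. The part of other cells in these values was not tested.

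The genes that the study itself singled out by expression and promoter marks in these tumors are not independent of them, and are given as counts. Of 5 ranked genes of its list of higher expression in LLC-R, 0 were past either limit, and the median was 0.08, or 0.01 relative to intergenic peaks. Cacna1g, a T-type calcium channel gene, had 151 and 251 peaks (0.29), Fgf18, a growth factor gene, had 81 and 124 (0.17), and Cacna1b had 429 and 592 (0.03, and -0.04 relative to intergenic peaks). Wnt2, another signalling ligand, had 128 and 169 (-0.04). Of 92 ranked genes of its list of lower expression, 32 (34.8%, against 20% of all ranked genes) were at least 20% lower and 0 (against 5.14%) were 25% higher, with a median of -0.28. The lower genes numbered 54 relative to intergenic peaks and 22 with each chromosome scaled by its own peaks, where all ranked genes had 33.3% and 18.8%. Atm, the DNA damage kinase, had 404 and 405 peaks (-0.43, -0.64 to -0.23) and Chd8, a chromatin remodeller, had 165 and 168 (-0.41). Fgf1, a fibroblast growth factor gene, had 215 and 364 (0.32, 0.07 to 0.57, and 0.15 scaled to its own chromosome, 18) and Cntfr, a cytokine receptor gene, had 37 and 62 (0.29). The median of this list was 3.74 peaks per kb in LLC-NR, above the 3.24 of all ranked genes. It was also above 3.59, past which a lower share in LLC-R was fixed by the LLC-NR density.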

How the data were processed

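ChIP was made on micrococcal nuclease-digested tumor chromatin with Abcam ab9050 for H3K36me3. Bowtie (0.12.7) was used by the authors for alignment to mm9. Only reads with a unique place were kept, and GeneTrack then called peaks library by library, with settings not given in the sources used here. The deposited files hold the start and end of each peak and no other value, and no input library was used here. The study's mapping statistics put more reads in the LLC-R than in the LLC-NR H3K36me3 library.

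Peaks were counted by midpoint with Python (3.11.15), NumPy (2.4.6), SciPy (1.17.1) and pandas (2.3.3), on GENCODE vM1 and NCBIM37. Counting was tested on simulated data. Ranked genes had bodies of at least 10 kb and at least 20 peaks. Genes named were the 10 highest and 10 lowest, 5 and 5 of 100 kb or longer, the 2 highest and 2 lowest of each list, and the H3K36 methyltransferases. A few items that these rules name are not reported here. Others are marked as chosen after their values were seen. Members and lists were chosen with earlier results of these data known. Of symbols used by several genes, the longest body was taken.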

Additional observations from a re-analysis of the deposited data

Results flagged for a closer look

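Chromosomes X and Y were left out of the comparisons, and were looked at for signal outside them. On chromosome Y the LLC-NR H3K36me3 library held 48 peaks and the LLC-R library 3205. The host mice were female. On chromosome X they held 300257 and 439669 peaks. Over all 4 marks, LLC-NR libraries held 48 to 328 peaks on chromosome Y and LLC-R libraries 1497 to 3205. With 1 library for each line and mark, this difference has no replicate check.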

How the results depend on the processing

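No paired analysis was possible because there is 1 library for each line and mark. The cause of the changes listed here was not tested. The directions of the gene body and intergenic shares held under each alternative. The gene body share ratio was -0.0846 with whole annotated genes, -0.0964 without the first 3 kb, -0.157 relative to intergenic peaks and -0.0830 with all annotated genes. Without chromosomes 5, 15, 16, 18 and 19 the intergenic ratio was 0.0651, and over 100 kb from genes it was 0.0878. Body over intergenic density (log2) in LLC-NR and LLC-R was 0.344 and 0.192 with whole annotated genes, 0.361 and 0.197 without the first 3 kb, and 0.574 and 0.404 as log2 odds, an alternative chosen after seeing the data. Without those 5 chromosomes it was 0.197 in LLC-R.

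Genes under 10 kb were at -0.0936 without the first 3 kb, -0.0853 relative to intergenic peaks and 0.0050 where no gene overlapped them. Genes of 300 kb or longer were at 0.0330 with whole annotated genes, -0.0294 relative to intergenic peaks and 0.0573 where no gene overlapped them. The slope along the body in LLC-NR was 0.0595 for genes of 50 kb or longer and 0.0758 for genes that overlap no other.

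The 118 genes at least 1.5-fold higher became 59 with a pseudocount of 5 peaks, 39 with at least 100 peaks, 26 for genes of 50 kb or longer, 75 for genes that overlap no other, 626 at 25% higher and 60 with at least 3 H3K9ac peaks per kb, the last 2 of these added after seeing the data. The 1 lower gene became 6 without the first 3 kb, 14 relative to intergenic peaks, 13 with each chromosome scaled by its own peaks, 11 with no minimum, 400 after subtraction of the mean of the other 3 marks, 2438 at 20% lower, and 0 with at least 100 peaks, at 50 kb or longer, for genes that overlap no other or with 3 H3K9ac peaks per kb. The 34 genes of the ranking kept their direction under all 7 alternatives that could be computed for them. They were picked for their extreme ratios, so most of these alternatives could hardly have reversed them.

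The other scalings were applied to the gene lists after seeing the data. The median of all ranked genes was -0.22 relative to intergenic peaks, and each list's median kept its sign, with 0.06 for long neuronal, 0.01 for endothelial and 0.01 for the study's 5 higher genes. No peak height is given, and intervals of single genes are wide, so small differences in short genes were not detectable at this depth.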
